A study of Mus musculus with 25 samples.

Results

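The messenger RNA levels of 10 genes that control passage through the G1 phase of the cell cycle were followed across hepatic progenitors carrying the Ras oncogene and the tumours they formed. The genes were taken by symbol from a list, and all 10 were found among the 24984 genes of the count table: the D cyclins Ccnd1, Ccnd2 and Ccnd3, the kinases Cdk4 and Cdk6, the inhibitors Cdkn2a, Cdkn2b, Cdkn2c and Cdkn1b, and the retinoblastoma gene Rb1. All 10 passed the filter on low counts in every comparison. The question behind the list was how the brake on the G1 phase differs between cells with little and much oncogene and between cultured cells and tumours.

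Libraries came from 7 groups. The cultured cells were BMEL, a bipotential embryonic liver line isolated from a C57B/6_C3H mouse, derived as 1 clone, grown on collagen with insulin, IGFII and EGF. BMEL WT (3 libraries) carried an empty vector, and RasLOW and RasHIGH (3 libraries each) carried a lentiviral vector that expresses human H-Ras with an activating mutation together with a fluorescent protein. RasLOW and RasHIGH were sorted on low or high fluorescence, with distributions that overlapped. The other libraries came from 4 athymic nude mice, which lack a normal thymus: GFP-positive tumour cells and GFP-negative stromal cells were sorted from the liver tumour and from the peritoneal tumour of each mouse (4 libraries in each of 4 groups). The methods describe the replicates of cultured and sorted tumour cells as separate biological samples. The labels do not say which cultured population had been injected. Age and sex of the mice are not given in the labels used here.

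In G1, D cyclins bind Cdk4 or Cdk6, and the complexes phosphorylate the Rb1 protein, which releases E2F factors and lets the cell enter S phase. The Ink4 proteins encoded by Cdkn2a, Cdkn2b and Cdkn2c block Cdk4 and Cdk6, while p27Kip1, encoded by Cdkn1b, acts mainly on complexes of Cdk2. Ras signalling through Erk is known to raise Ccnd1 transcription, and strong Ras signalling in normal cells can raise Cdkn2a products and lead to a lasting arrest, which tumour cells escape. Cdkn2a encodes a second protein, p19Arf, which stabilises p53 by inhibiting Mdm2.

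The level of Cdkn2a in a gene count joins both products, and the sequences show why. On mm9 the gene lies on the minus strand at chr4:88920377-88940557. The transcripts of p16Ink4a and p19Arf have a first exon each and share exons 2 and 3. Shown here are the 30 last bases of each first exon (p19Arf chr4:88940238-88940267, p16Ink4a chr4:88927890-88927919) in lower case, joined to the first 30 bases of exon 2 (chr4:88922860-88922889) in capitals, on the strand that is transcribed.
p19Arf: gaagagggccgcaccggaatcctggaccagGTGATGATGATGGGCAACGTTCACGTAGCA
p16Ink4a: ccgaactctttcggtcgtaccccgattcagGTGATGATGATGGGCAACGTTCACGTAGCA
The bases in capitals are the same in both, and they are read in different frames, so that the proteins share no sequence there. Of 1136 bp in the exons of either transcript, 643 bp (56.6%) are in both, 286 bp belong to p19Arf alone and 207 bp to p16Ink4a alone. With reads summed per gene, the deposited counts do not tell how much of each product was transcribed, and a change in Cdkn2a below is not a change in p16Ink4a or in p19Arf as such. The products were assayed apart in BMEL clones by qRT-PCR, which was not analysed here.

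**Figure D1:**
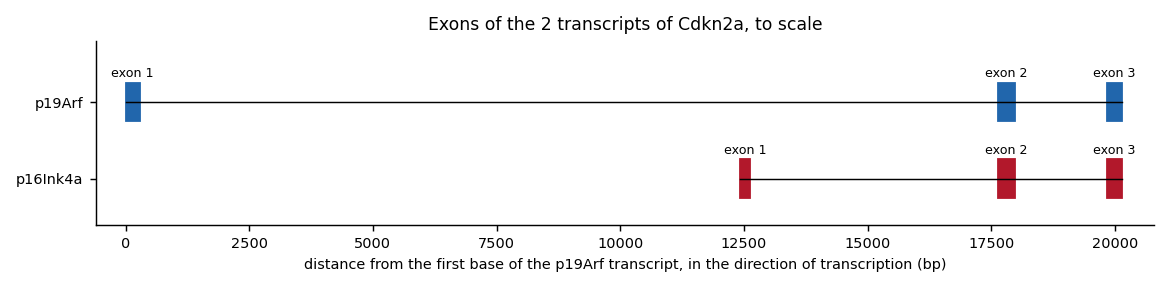
Exons of the p19Arf and p16Ink4a transcripts of Cdkn2a, drawn to scale against the distance in bp from the first base of the p19Arf transcript in the direction of transcription. Boxes are exons and lines introns. Exons 2 and 3 stand at the same positions in both rows.

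Cdkn2b, which encodes p15Ink4b, is the next gene on the same strand at chr4:88952198-88956941. Its promoter is shown with those of the Cdkn2a products because Cdkn2a and Cdkn2b moved together in the tumours. The sequences are from RefSeq on GRCm38.p6, the 250 bases before each start, minus strand, at chr4:89294620-89294869 for p19Arf, chr4:89282193-89282442 for p16Ink4a and chr4:89311033-89311282 for Cdkn2b. Capitals mark matches, on either strand, to motifs of Sp factors (GGGCGG), of E2F (TTTNNCGC) and to the cyclic AMP response element (TGACGTCA).
Cdkn2a p19Arf promoter: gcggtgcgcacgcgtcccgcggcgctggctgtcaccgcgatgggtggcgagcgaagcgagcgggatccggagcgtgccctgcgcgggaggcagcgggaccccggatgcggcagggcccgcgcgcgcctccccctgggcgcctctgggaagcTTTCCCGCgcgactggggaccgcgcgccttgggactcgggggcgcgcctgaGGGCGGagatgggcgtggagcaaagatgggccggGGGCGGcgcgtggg
Cdkn2a p16Ink4a promoter: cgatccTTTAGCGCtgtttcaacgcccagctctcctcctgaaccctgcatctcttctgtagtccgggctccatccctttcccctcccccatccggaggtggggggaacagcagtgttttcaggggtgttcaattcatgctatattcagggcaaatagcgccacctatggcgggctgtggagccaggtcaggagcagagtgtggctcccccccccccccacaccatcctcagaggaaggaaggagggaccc
Cdkn2b promoter: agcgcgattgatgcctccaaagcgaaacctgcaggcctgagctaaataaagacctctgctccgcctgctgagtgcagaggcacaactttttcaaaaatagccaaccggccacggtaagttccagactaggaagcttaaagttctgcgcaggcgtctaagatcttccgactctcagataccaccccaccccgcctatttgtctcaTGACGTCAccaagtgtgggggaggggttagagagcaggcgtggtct
The p19Arf window held 2 Sp matches and 1 E2F match, the p16Ink4a window 1 E2F match and the Cdkn2b window 1 cyclic AMP response element. None of the 3 held the AP-1 motif (TGANTCA). Of 32851 promoter windows of this length, 32.7% held the Sp motif, 6.7% the AP-1 motif, 4.3% the E2F motif and 1.5% the cyclic AMP response element. These are matches of letters and say nothing of binding. Promoters of 7 of the 10 genes were in the table. Ccnd1, Ccnd2 and Rb1 were not.

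The other genes lie, on mm9, at chr7:152115836-152125774 (Ccnd1, minus strand), chr6:127075797-127101066 (Ccnd2, minus), chr17:47642000-47736632 (Ccnd3, plus), chr10:126500590-126504976 (Cdk4, plus), chr5:3343893-3523218 (Cdk6, plus), chr4:109333481-109339794 (Cdkn2c, minus), chr6:134870419-134875531 (Cdkn1b, plus) and chr14:73583480-73725629 (Rb1, minus). Values are counts over whole genes, exons and untranslated parts included. Exons of 5 genes overlap a gene on the opposite strand, by 818 bp for Ccnd1 (Oraov1), 353 bp for Ccnd3 (Bysl), 604 bp for Cdk4 (Tspan31), 488 bp and 408 bp for Rb1 (Rcbtb2 and Lpar6) and 60 bp for Cdk6 (Gm17590). The strand setting of the counting is not given in the sources used here, so reads in these stretches cannot be assigned with certainty. Of the overlapping genes, Lpar6, Rcbtb2, Bysl and Tspan31 were looked at in all groups, and Oraov1 and Gm17590 were not. Lpar6 averaged 24.8 CPM in BMEL WT, 13.96 in RasLOW and 9.38 in RasHIGH, as Rb1 fell. Bysl averaged 64.5, 85.5 and 57.8 CPM in these groups, in the same order as Ccnd3. It averaged 23.2 and 23.5 CPM in liver and peritoneal tumour cells, where Ccnd3 was also below RasHIGH. In stroma it averaged 23.3 and 25.2 CPM, where Ccnd3 was higher. Tspan31 averaged 100.6, 98.2 and 83.4 CPM in the cultured groups, 82.8 and 101.2 in tumour cells and 86.8 and 86.5 in stroma. Rcbtb2 averaged 107 CPM in liver stroma and 69.8 in peritoneal stroma against 11.0 and 10.3 in the tumour cells, and Lpar6 64.6 and 25.2 against 11.5 and 12.5, where Rb1 was also higher in stroma. The part of these genes in the values was not tested.

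Total counts ran from 20818989 to 51241336 per library, so that 3 counts stood for 0.0572 to 0.143 CPM (counts divided by the library total and brought to a common size, with TMM factors over all 25 libraries). The lowest count of any of the 10 genes in any library was 62. Replicates correlated at r = 0.984 to 0.998. The transgene is human, and mouse Hras averaged 79.9 CPM in BMEL WT, 77.9 in RasLOW and 66.9 in RasHIGH, so the counts do not check the oncogene. Epithelial and progenitor markers (8 genes, among them Krt8, Krt18, Krt19, Cdh1, Sox9, Hnf4a and Epcam) summed to 7472 to 10696 CPM in cultured cells, 8274 to 11539 CPM in tumour cells and 720.0 to 1684 CPM in stroma. Epcam was near 0 in cultured and tumour cells. A set of 9 leukocyte markers summed to 3.75 to 10.2 CPM in cultured cells and 4162 to 6521 CPM in stroma. In tumour cells the sum was 22.4 to 41.5 CPM except in the peritoneal library of mouse 1, at 194 CPM.

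RasLOW replicate 2 and RasHIGH replicate 1 stood apart from their groups. The summed level of 18 S phase and division genes was 5058, 1194 and 4928 CPM in RasLOW and 727, 3894 and 3669 CPM in RasHIGH, against 3431, 3796 and 3828 CPM in BMEL WT. Mki67, a marker of dividing cells, stood at 93.8 CPM in RasLOW replicate 2 and at 272 and 601 CPM in the other two. In RasHIGH it stood at 45.6 CPM in replicate 1 and at 270 and 340 CPM in the others, with 340 to 408 CPM in BMEL WT. The calls of the 10 genes among cultured cells, and the list counts that moved, are therefore also given without these libraries, whose values move with those of several of the 10 genes. In the labels both carry neighbouring library identifiers, as do RasLOW replicate 3 and RasHIGH replicate 2, but no label says that neighbours were prepared together and no fit paired them. The part of cell division in these values was not tested.

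**Figure D2:**
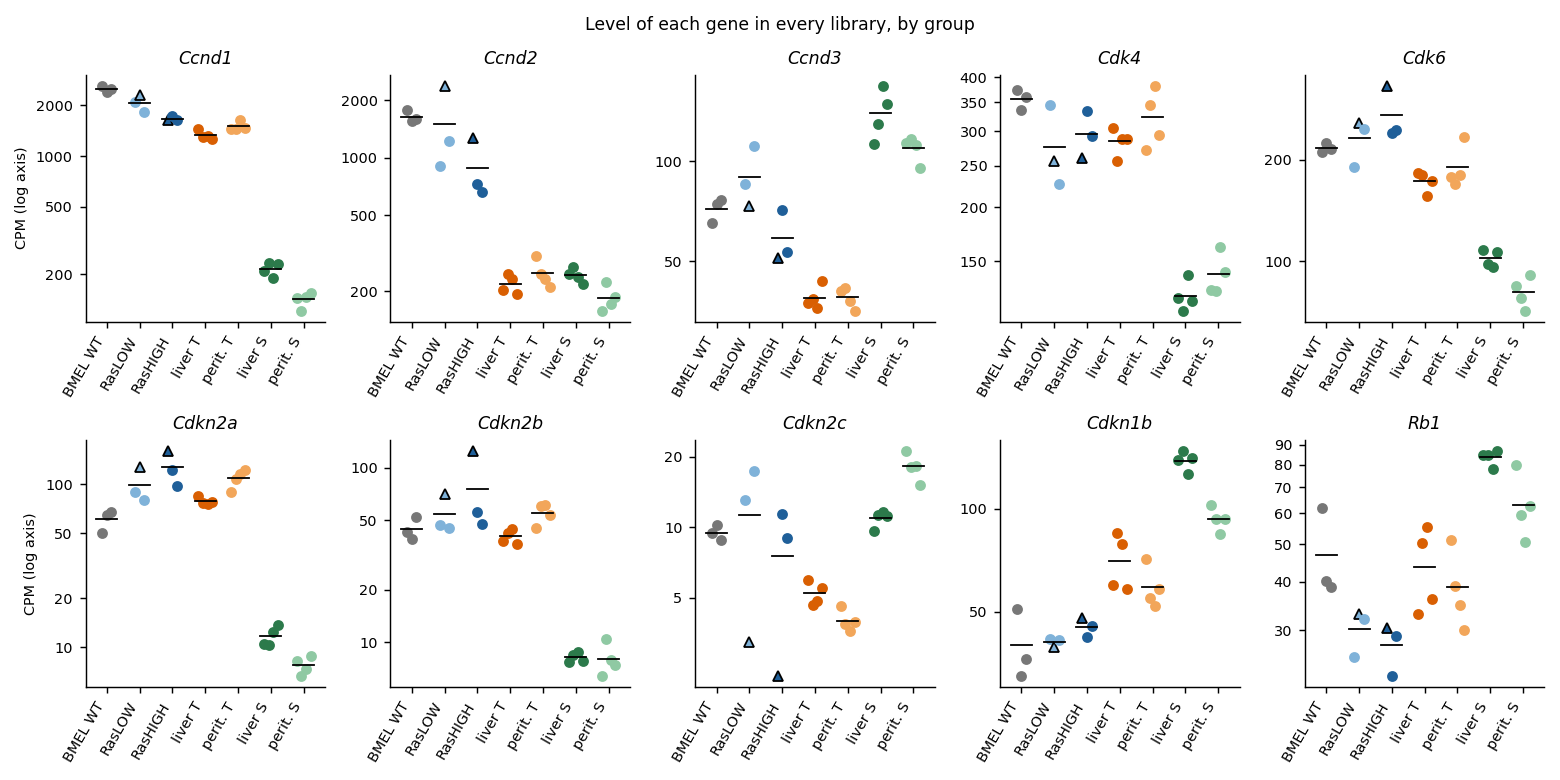
Level of each of the 10 genes in all 25 libraries, in CPM, by group (T, tumour cells; S, stroma). Points are libraries, horizontal lines are group means, and black-edged triangles mark RasLOW replicate 2 and RasHIGH replicate 1. Ccnd1 and Cdkn2a were lowest in the 8 stromal libraries, while Ccnd3, Cdkn1b and Cdkn2c were higher in stroma than in tumour cells of the same site.

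Ccnd1, the D cyclin most closely tied to growth factor signalling, was the most abundant of the 10 in cultured and tumour cells. Per kb of exon, its mean level was 653 CPM in BMEL WT, 542 in RasLOW, 435 in RasHIGH, 347 in liver tumour cells and 392 in peritoneal tumour cells. In stroma it was 56.0 CPM per kb in the liver and 36.9 in the peritoneum, where Ccnd3 stood at 62.1 and 48.5 CPM per kb. Of the 3 D cyclins together, per length, Ccnd1 made up 67.1% ± 0.405 (SD, n = 3) in BMEL WT, 86.2% ± 1.26 (n = 4) in liver tumour cells and 86.6% ± 1.87 (n = 4) in peritoneal tumour cells, and 34.9% ± 3.41 and 31.4% ± 3.86 (n = 4 each) in stroma. The share of Ccnd2 was 29.6% ± 0.783 in BMEL WT and 9.53% ± 1.17 and 9.62% ± 1.62 in the tumour cells. Cdk4, at 85.0 to 110 CPM per kb in cultured and tumour cells, exceeded Cdk6, at 46.3 to 72.8 CPM per kb, in every group mean. Among the Ink4 genes, Cdkn2a (52.0 to 108 CPM per kb in cultured and tumour cells) stood above Cdkn2b (29.04 to 54.6) and Cdkn2c (1.49 to 4.19) in these 5 groups. The Cdkn2a level joins p16Ink4a and p19Arf. Cdkn1b was at 8.76 to 9.94 CPM per kb in cultured cells and at 30.4 in liver stroma, and Rb1 lay between 4.57 CPM per kb in RasHIGH and 13.9 in liver stroma.

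The order of groups differed between the genes. Ccnd1 ran from BMEL WT through RasLOW, RasHIGH, peritoneal and liver tumour cells to liver and peritoneal stroma, and only the neighbours RasHIGH and peritoneal tumour cells overlapped. The highest group mean was 17.7 times the lowest for Ccnd1, 16.4 times for Cdkn2a, 9.44 times for Cdkn2b and 8.91 times for Ccnd2, against 2.85 to 4.54 times for the other 6. Cdkn2a was highest in RasHIGH, followed by peritoneal tumour cells, RasLOW, liver tumour cells and BMEL WT. Its first 4 groups overlapped their neighbours and the others did not. For Rb1 all 6 pairs of neighbours overlapped.

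The cultured cells address what the oncogene and its dose did to these genes. In RasHIGH against BMEL WT, Cdkn2a was higher and Ccnd1, Ccnd2 and Rb1 were lower, by 1.54 to 2.03-fold. In RasLOW none of the 10 was called, and none was called between RasHIGH and RasLOW. The ranges of Ccnd1, Ccnd3 and Cdkn1b did not overlap between RasHIGH and RasLOW (edgeR quasi-likelihood test, adjusted p = 0.658, 0.399 and 0.808). The share of all genes with such ranges was not counted, so this is no sign of an effect of dose. Both comparisons with BMEL WT use the same 3 control libraries.

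Among the cyclins, Ccnd1 stood at 2613, 2397 and 2499.5 CPM in BMEL WT, at 2099, 2298 and 1834 CPM in RasLOW and at 1629, 1734 and 1643 CPM in RasHIGH. No 2 of these groups overlapped. The log2 fold change in RasHIGH was -0.62 (SE 0.12, adjusted p = 0.0112, edgeR quasi-likelihood test, as for all adjusted p below). In RasLOW it was -0.30 (SE 0.16, adjusted p = 0.337). Ccnd2, which can pair with the same kinases, measured 1778, 1555 and 1601 CPM in BMEL WT and 1265, 725 and 662 CPM in RasHIGH, without overlap (log2 fold change -0.94, SE 0.25, adjusted p = 0.0338). In RasLOW it spread from 903 and 1225 CPM to 2389 CPM in replicate 2, the library with few division genes, on both sides of BMEL WT. Without that library Ccnd2 was lower in RasLOW (log2 fold change -0.67, SE 0.17, adjusted p = 0.0374). Ccnd3 stood at 65.4, 74.4 and 76.2 CPM in BMEL WT, at 85.5, 73.5 and 111 CPM in RasLOW and at 51.2, 71.4 and 53.2 CPM in RasHIGH. It passed the test in neither comparison (adjusted p = 0.391 and 0.204).

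The kinases moved little. Cdk4 was at 373, 337 and 359.7 CPM in BMEL WT, 345, 257 and 227 CPM in RasLOW and 261, 334 and 293 CPM in RasHIGH, which lay wholly below BMEL WT (log2 fold change -0.31, SE 0.14, adjusted p = 0.165). Cdk6 was at 211, 224 and 215 CPM in BMEL WT, 189.9, 256 and 247 CPM in RasLOW and 331, 239.95 and 244 CPM in RasHIGH, which lay wholly above BMEL WT (log2 fold change 0.29, SE 0.15, adjusted p = 0.212). Neither passed the test in any comparison of cultured cells.

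Of the inhibitors, Cdkn2a rose in RasHIGH. It stood at 50.4, 64.4 and 67.5 CPM in BMEL WT, 89.3, 128 and 80.1 CPM in RasLOW and 159.6, 123 and 97.3 CPM in RasHIGH. All 6 libraries with the oncogene were above the 3 without. The log2 fold change was 1.02 in RasHIGH (SE 0.20, adjusted p = 0.0125) and 0.68 in RasLOW (SE 0.22, adjusted p = 0.122, and 0.0407 by DESeq2). Without the library standing apart in each group it was 0.84 in RasHIGH (adjusted p = 0.00849) and 0.43 in RasLOW (adjusted p = 0.078). Cdkn2b stood at 42.7, 39.2 and 52.4 CPM in BMEL WT, 47.2, 70.5 and 45.1 CPM in RasLOW and 125, 56.0 and 47.5 CPM in RasHIGH. Its highest value in each Ras group, like that of Cdkn2a, was that of the library with few division genes. Without RasHIGH replicate 1 the log2 fold change of Cdkn2b in RasHIGH went from 0.72 (SE 0.35, adjusted p = 0.194) to 0.19 (adjusted p = 0.382). The ratio of Cdkn2a to Cdkn2b counts averaged 1.37 in BMEL WT, 1.83 in RasLOW and 1.84 in RasHIGH.

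Cdkn2c, encoding p18Ink4c, showed the opposite pattern between libraries. It was at 9.43, 10.2 and 8.87 CPM in BMEL WT, 13.0, 3.26 and 17.4 CPM in RasLOW and 2.33, 11.5 and 8.98 CPM in RasHIGH, lowest in the libraries with few division genes. Cdkn1b measured 50.8, 32.5 and 36.3 CPM in BMEL WT, 41.5, 39.4 and 41.2 CPM in RasLOW and 48.0, 42.3 and 45.5 CPM in RasHIGH, with no call. Rb1 measured 61.7, 40.3 and 38.7 CPM in BMEL WT, 25.6, 33.1 and 32.1 CPM in RasLOW and 30.5, 22.9 and 29.1 CPM in RasHIGH, so all 6 Ras libraries lay below the controls. Its log2 fold change was -0.81 in RasHIGH (SE 0.22, adjusted p = 0.0398) and -0.66 in RasLOW (SE 0.23, adjusted p = 0.142).

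In RasHIGH, 1 of the 10 genes was thus called higher and 3 lower, where of all 12331 genes tested 10.9% were called higher and 11.7% lower. DESeq2 and the edgeR exact test also called 4. The median log2 fold change of the 10 was -0.32, and that of all genes -0.02. The same 4 genes were called without RasHIGH replicate 1, when 31.0% of all genes were called. Cdkn2a and Ccnd1 stayed called without any 1 library. Ccnd2 and Rb1 were lost without any 1 library other than RasHIGH replicate 1, with adjusted p from 0.0846 to 0.106 for Ccnd2 and from 0.0569 to 0.121 for Rb1. The BMEL WT replicates 1 and 2 were sequenced on another lane than the other cultured libraries. With the 1 BMEL WT library of the shared lane, whose spread was taken from the RasHIGH group, none of the 10 was called, at log2 fold changes of 0.87 for Cdkn2a, -0.62 for Ccnd1, -0.90 for Ccnd2 and -0.53 for Rb1.

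In RasLOW none of the 10 was called by edgeR, while 1.92% of all genes were called higher and 4.05% lower. Cdkn2a and Rb1 had an unadjusted p under 0.05. DESeq2 called 1 of the 10 and the exact test 0. Between RasHIGH and RasLOW edgeR, DESeq2 and the exact test called 0 of the 10, against 0.0585% of all genes called higher and 0.0167% lower by edgeR. Ccnd3 alone had an unadjusted p under 0.05 (log2 fold change -0.61, SE 0.22, adjusted p = 0.399), and it was called when all 25 libraries shared 1 fit (-0.62, adjusted p = 0.0192). Its RasHIGH values lay below all RasLOW values, as did those of Ccnd1 (adjusted p = 0.658), while Cdkn1b lay wholly above (adjusted p = 0.808). Leaving out both libraries that stood apart, none of the 10 was called and 0.421% of all genes were. The log2 fold change of Cdkn2a was then 0.40, that of Ccnd2 -0.59 and that of Cdkn2b 0.19.

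**Figure D3:**
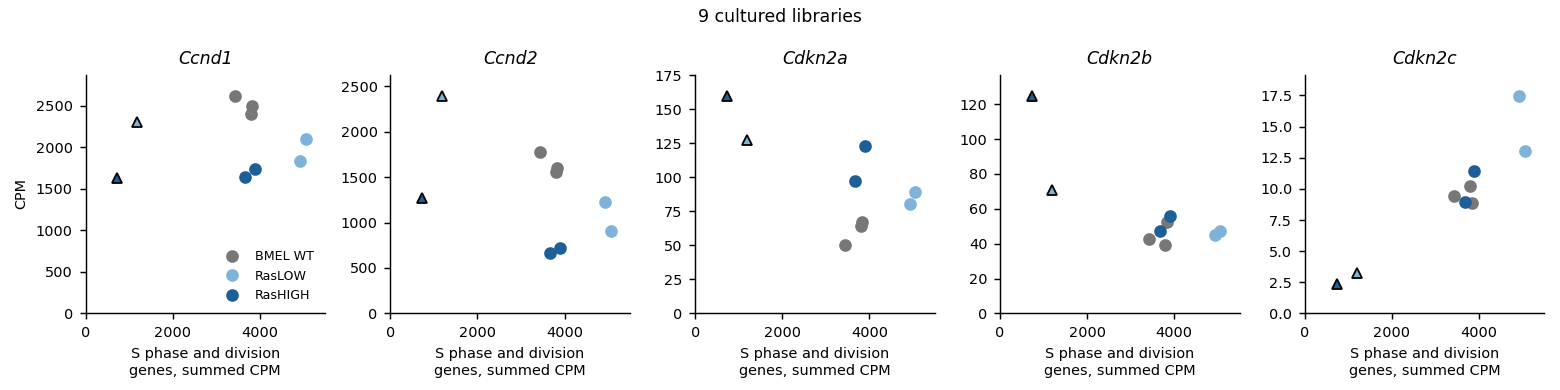
Levels of Ccnd1, Ccnd2, Cdkn2a, Cdkn2b and Cdkn2c (CPM, vertical axes) against the summed CPM of 18 S phase and division genes (horizontal axes) in the 9 cultured libraries. The black-edged triangles are RasLOW replicate 2 and RasHIGH replicate 1, at 1194 and 727 CPM on the horizontal axes. Each had the highest Ccnd2, Cdkn2a and Cdkn2b and the lowest Cdkn2c of its group.

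Genes around this pathway were read from fixed lists. Of 16 other cyclins, kinases, pocket proteins and E2F genes of the G1/S transition, edgeR called 0 in RasLOW, in RasHIGH or between them. At an unadjusted p under 0.05 these were 1, 2 and 0 genes, and DESeq2 called 0, 1 and 0 and the exact test none. Without RasLOW replicate 2, 4 of the 16 were called higher in RasLOW and none lower (median 0.18), where 18.6% of all genes were called. Without RasHIGH replicate 1, 2 were called higher and 3 lower in RasHIGH (median -0.04), where 31.0% of all genes were called. In RasHIGH the medians were -0.30 for this list and -0.02 for all genes, with -1.40 (SE 0.69) for the repressor E2f7 and -1.14 (SE 0.76) for Ccne2. In RasLOW the largest values were 0.56 (SE 0.36) for E2f2 and -0.56 (SE 0.53) for E2f7. In RasHIGH against RasLOW, Ccne1 was at -1.01 (SE 0.74) and E2f7 at -0.84 (SE 0.87). Of the 18 S phase and division genes, edgeR, DESeq2 and the exact test called 0 in each of the 3 comparisons, and none had an unadjusted p under 0.05. Their median log2 fold change was -0.01 in RasLOW, -0.42 in RasHIGH and -0.41 between them, with Cdk1 at -0.32 (SE 0.47) in RasLOW, Mki67 at -0.80 (SE 0.61) in RasHIGH, and Rrm2 at -0.66 (SE 0.98) and Mcm2 at -0.60 (SE 0.60) between them. Without RasLOW replicate 2, 4 of the 18 were called higher in RasLOW (median 0.37), and without RasHIGH replicate 1, 2 of the 18 were called higher in RasHIGH (median 0.04), beside the same 18.6% and 31.0% of all genes.

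Cdkn1a, the p53 target p21, fell in RasHIGH (log2 fold change -0.98, SE 0.24, adjusted p = 0.0268) and was at -0.80 (SE 0.31, adjusted p = 0.187) in RasLOW. Without RasLOW replicate 2 it was called lower there too (-1.27, SE 0.11, adjusted p = 0.00183), and without RasHIGH replicate 1 the value in RasHIGH was -1.29 (adjusted p = 0.000937). It stood at 534, 555 and 519.5 CPM in BMEL WT, 241, 479 and 218 CPM in RasLOW and 391, 193 and 253 CPM in RasHIGH, highest again in the libraries with few division genes. Of the other Cdk inhibitors, Cdkn2d was tested and not called (0.52, SE 0.26, in RasLOW). RasHIGH against RasLOW called neither, with Cdkn2d at -0.47 (SE 0.33) and Cdkn1a at -0.17 (SE 0.38). DESeq2 and the exact test called 0 of these 2 in RasLOW and between the Ras groups, where 1 and 0 had an unadjusted p under 0.05. The 5 genes of cyclin and p27 turnover held 0 calls in the 3 comparisons by edgeR, DESeq2 and the exact test, with 0, 1 and 0 at an unadjusted p under 0.05. Without RasHIGH replicate 1, the Skp2 cofactor Cks1b was called higher in RasHIGH (0.47, adjusted p = 0.0187) and Fbxo4 lower (-0.49, adjusted p = 0.0486). In that fit 31.0% of all genes were called. The F-box gene Fbxo4 was at -0.35 (SE 0.18) in RasLOW and -0.43 (SE 0.16) in RasHIGH, Fbxw7 at 0.19 (SE 0.16), 0.41 (SE 0.22) and, between the Ras groups, 0.23 (SE 0.22), and Skp2 was at -0.40 (SE 0.49) between them.

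Of 15 genes of the Arf-p53 arm and known regulators of Cdkn2a, 1 rose and 1 fell in RasLOW and 2 rose and 4 fell in RasHIGH, or 3 and 3 without RasHIGH replicate 1. Of all genes, 1.92% were called higher and 4.05% lower in RasLOW, and 10.9% and 11.7% in RasHIGH. Without RasHIGH replicate 1, 31.0% of all genes were called. Mdm2, the ubiquitin ligase inhibited by p19Arf and itself a p53 target, stood at 1222, 1015.5 and 1000.3 CPM in BMEL WT, 2437, 3044 and 2314 CPM in RasLOW and 5311, 3814 and 4939.9 CPM in RasHIGH. The groups did not overlap, and Mdm2 rose by a log2 fold change of 1.24 in RasLOW (SE 0.19, adjusted p = 0.0146) and 2.08 in RasHIGH (SE 0.18, adjusted p = 0.000569). Tbx2, a repressor of the Cdkn2a locus, fell, with log2 fold changes of -2.71 and -2.76 (adjusted p = 0.045 and 0.0191), from 0.702 to 1.28 CPM in BMEL WT to at most 0.263 CPM. Ets2, a transcription factor of the Ets family, fell by 0.97 in RasHIGH (SE 0.14, adjusted p = 0.00427). Between RasHIGH and RasLOW none of 14 tested was called by edgeR (4 at an unadjusted p under 0.05, 1 by DESeq2, 2 by the exact test), with Tbx3 at -2.39 (SE 0.43) and Mdm2 at 0.85 (SE 0.22).

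Of 9 genes secreted by senescent cells, 5 were tested in RasLOW and in RasHIGH, and in each 2 fell and none rose (medians -1.03 and -1.24). Of all genes, 4.05% were called lower in RasLOW and 11.7% in RasHIGH. Without RasHIGH replicate 1, 3 of the 5 were called lower in RasHIGH (median -2.37), where 31.0% of all genes were called. Without RasLOW replicate 2, 2 were called lower in RasLOW (median -1.21), where 18.6% of all genes were called. Ccl2, a monocyte chemokine, averaged 1.77 CPM in BMEL WT and had no count in any of the 6 Ras libraries, at least 49.4-fold lower in RasLOW and at least 42.7-fold lower in RasHIGH when 3 counts are set over each group. The medians were the same with Ccl2 at these bounds. Between the Ras groups 0 of 4 were called by edgeR, DESeq2 or the exact test (1 at an unadjusted p under 0.05), with Cxcl1 at 1.68 (SE 0.70) and Igfbp5 at -0.20 (SE 0.90). Mtap, the neighbour of Cdkn2a, was at 0.21 (SE 0.15), -0.05 (SE 0.21) and -0.26 (SE 0.23) in the 3 comparisons and was not called by edgeR, DESeq2 or the exact test, nor at an unadjusted p under 0.05. Of 10 neighbours of Cdk4 tested, edgeR called 0 in RasLOW (1 at an unadjusted p under 0.05, 1 by DESeq2, 0 by the exact test), 1 higher in RasHIGH and 0 between them (0 by each of these). That gene was Avil, which encodes advillin, at 3.27 in RasHIGH (SE 0.76, adjusted p = 0.0226), 2.03 in RasLOW (SE 0.75) and 1.26 between the Ras groups (SE 0.93). March9 was at 0.46 (SE 0.32) in RasLOW and Cyp27b1 at -0.91 (SE 0.43) between the Ras groups.

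Tumour cells were set beside cultured RasHIGH cells to ask how the genes stood after growth in the animal. Ccnd2 was the largest difference, 4.03-fold lower in liver tumour cells and 3.52-fold lower in peritoneal tumour cells, and Cdkn1b was higher in both. The inhibitors Cdkn2a and Cdkn2b were called lower in liver tumour cells and were not called in peritoneal tumour cells. Both comparisons share the 3 RasHIGH libraries, and sorting, dissociation and lane differ between cultured and tumour libraries and cannot be told apart from growth in the mouse. In sorted or cultured cells in bulk, fewer cells of a type and less RNA per cell cannot be told apart.

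Ccnd2 stood at 203, 245, 231 and 194 CPM in liver tumour cells of mice 1 to 4 and at 305, 247, 230.2 and 210.5 CPM in peritoneal tumour cells, all below the 662 CPM of the lowest RasHIGH library. The log2 fold changes were -2.01 (SE 0.22, adjusted p = 0.000199) and -1.82 (SE 0.24, adjusted p = 0.00126). RasHIGH replicate 1, with few division genes, had the highest Ccnd2 of its group, at 1265 CPM. With a library left out the values ran from -2.19 to -1.66 and from -1.996 to -1.47, and Ccnd2 stayed called. Ccnd3 stood at 37.3, 38.4, 36.1 and 43.7 CPM and at 40.7, 41.7, 38.0 and 35.5 CPM, also below all RasHIGH values (-0.58 and -0.57, adjusted p = 0.0109 and 0.0151). Ccnd1, at 1453, 1292, 1311 and 1264 CPM in liver tumour cells and 1458, 1453, 1639.5 and 1465 CPM in peritoneal tumour cells, was called lower only in the liver comparison (-0.32, SE 0.11, adjusted p = 0.0374).

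Cdk4 did not separate tumour from cultured cells, at 306, 256, 287 and 289 CPM in liver and 272, 345, 382 and 295 CPM in peritoneal tumour cells (-0.05, SE 0.12, and 0.14, SE 0.15). Cdk6 was lower in both, at 183, 179.8, 157 and 173 CPM and at 177, 169, 180.2 and 233 CPM (log2 fold changes -0.64 and -0.50, adjusted p = 0.00563 and 0.0392).

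Among the inhibitors, Cdkn2a stood at 84.3, 76.2, 75.7 and 77.2 CPM in liver tumour cells, below every RasHIGH library (-0.68, SE 0.16, adjusted p = 0.00805). In peritoneal tumour cells it stood at 89.4, 107, 116 and 122 CPM, among the RasHIGH values (-0.21, SE 0.18, adjusted p = 0.38). Cdkn2b was at 38.2, 42.4, 44.4 and 36.8 CPM in liver tumour cells (-0.90, SE 0.30, adjusted p = 0.0345, and -0.35, adjusted p = 0.0273, without RasHIGH replicate 1) and at 45.4, 60.004, 61.005 and 53.6 CPM in peritoneal tumour cells (-0.45, SE 0.31, adjusted p = 0.273). Cdkn2c was at 5.94, 4.68, 4.85 and 5.54 CPM and at 4.60, 3.89, 3.60 and 3.93 CPM, within the wide RasHIGH range. Without RasHIGH replicate 1 it was called lower in both (-0.95, adjusted p = 0.00116, and -1.34, adjusted p = 0.00124).

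Cdkn1b measured 59.9, 84.7, 79.0 and 58.4 CPM in liver and 71.2, 54.9, 52.1 and 58.1 CPM in peritoneal tumour cells, above the RasHIGH libraries in all 8 (0.65, SE 0.16, adjusted p = 0.00985, and 0.40, SE 0.14, adjusted p = 0.0493). Rb1 measured 33.1, 50.3, 55.3 and 36.0 CPM in liver tumour cells, above RasHIGH (0.68, SE 0.21, adjusted p = 0.0259), and 51.2, 39.0, 35.0 and 30.1 CPM in peritoneal tumour cells (0.52, SE 0.20, adjusted p = 0.0764).

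In liver tumour cells 2 of the 10 genes were called higher and 6 lower, where 23.0% of all genes tested were called higher and 22.1% lower. In peritoneal tumour cells 1 was called higher and 3 lower, where 19.3% of all genes were called higher and 18.6% lower. The medians of the 10 were -0.55 and -0.33, and those of all genes -0.01 in both. Of the 18 S phase and division genes, summed to 1328 to 2082 CPM in tumour cells, 1 was called lower in each comparison (medians -0.87 and -0.95), and all 18 were called lower in each without RasHIGH replicate 1, when 60.6% of all genes in the liver comparison and 7050 of 13291 in the peritoneal one were called. Of the 16 other G1/S genes, 1 was called higher and 5 lower in liver tumour cells and 4 lower in peritoneal tumour cells. Without RasHIGH replicate 1 these became 1 higher and 11 lower, and 11 lower. Of the genes secreted by senescent cells, 5 of 6 tested were called higher in liver tumour cells (median 4.06) and none lower. In peritoneal tumour cells 5 of 8 were called higher (median 3.79) and none lower. The list summed to 4398 to 7229 and 3260 to 4085 CPM in these cells, against 443 to 687 CPM in RasHIGH. In liver and peritoneal stroma it summed to 3270 to 3892 and 4086 to 5680 CPM. The part of stromal cells in this rise was not tested. In the liver comparison Ccnd1, Rb1 and Cdkn2b were each lost without one of several single libraries (adjusted p up to 0.12, 0.096 and 0.0902), and Ccnd2, Ccnd3, Cdk6, Cdkn2a and Cdkn1b were not. In the peritoneal one Cdk6, Cdkn1b and Ccnd3 were (adjusted p up to 0.113, 0.154 and 0.0562) and Ccnd2 was not. Without the peritoneal library of mouse 1, with its leukocyte signal, Cdk6 and Cdkn1b were lost (adjusted p = 0.0944 and 0.0633).

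**Figure D4:**
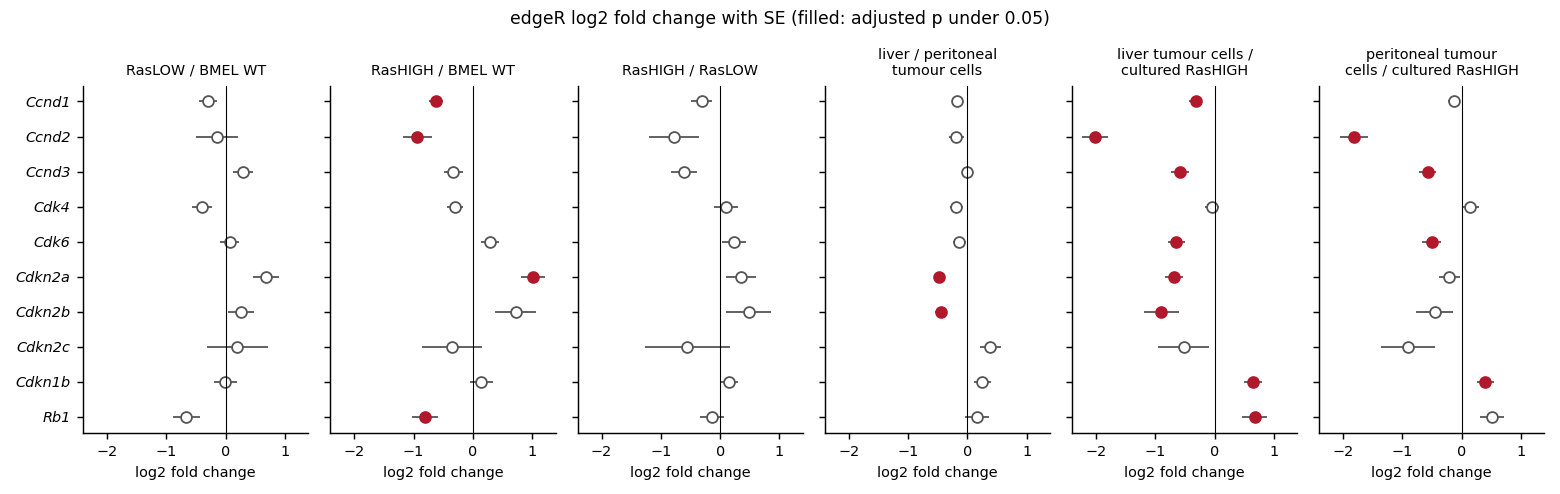
Log2 fold change of each gene, fitted by edgeR, in 6 comparisons named above the panels (first group over second). Bars are SEs and filled points have an adjusted p under 0.05. Ccnd2 lies furthest from 0 in both tumour comparisons, at -2.01 and -1.82, and the panel of RasHIGH against RasLOW has no filled point.

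The liver and peritoneal tumours of each mouse ask whether the site of growth matters. Cdkn2a and Cdkn2b, next to each other on chromosome 4, were lower in liver than in peritoneal tumour cells in 4 of 4 mice, and no other gene of the 10 was called. Both had no overlap between sites: 75.7 to 84.3 against 89.4 to 122 CPM for Cdkn2a, and 36.8 to 44.4 against 45.4 to 61.0 CPM for Cdkn2b. The log2 fold changes were -0.47 (SE 0.10, adjusted p = 0.0319) and -0.44 (SE 0.10, adjusted p = 0.0479), that is 1.39 and 1.36-fold. The ratio of Cdkn2a to Cdkn2b counts averaged 1.95 in the liver and 1.98 in the peritoneum. Mtap, the next gene on the other side of Cdkn2a, was at -0.15 (SE 0.13) and was not called.

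Of the 10 genes 2 were thus called lower and none higher, where 1.87% of all genes were called lower and 1.33% higher, and the median of the 10 was -0.16 against -0.01 for all genes. With the mouse as a block the adjusted p became 0.0954 for Cdkn2a and 0.068 for Cdkn2b, and 102 in place of 419 genes were called. The 4 mice differed: for Cdkn2a the difference of log2 levels was -0.09 in mouse 1 and -0.50, -0.61 and -0.66 in the others, and for Cdkn2b it was -0.25, -0.50, -0.46 and -0.54. The peritoneal library of mouse 1 held leukocyte markers at 194 CPM and fibroblast markers at 1455 CPM, against at most 30.1 and 323 CPM in the other three. Without it both genes were called (adjusted p = 0.00558 and 0.0129). The sites also differed apart from that library: fibroblast markers summed to 40.3 to 61.7 CPM in liver tumour cells and 211 to 323 CPM in the other 3 peritoneal libraries. A list of 4 mesothelial genes summed to 218 to 266 CPM against 340 to 473 CPM in all 4. The mesothelial genes were also counted in the cultured cells. They summed to 1159 to 1340 CPM in cultured BMEL WT, 919 to 2621 in RasLOW and 551 to 769 in RasHIGH. In stroma the sums were 74.6 to 154 CPM in the liver and 104 to 134 CPM in the peritoneum. The part of admixed leukocytes, fibroblasts and mesothelial cells in the differences of Cdkn2a and Cdkn2b was not tested. Leaving out a library other than that one or the liver library of mouse 1, Cdkn2a was lost without any 1 of 6 and Cdkn2b without any 1 of the same 6 (adjusted p up to 0.112 and 0.125). Without the liver library of mouse 1, Cdkn2b was lost as well (adjusted p = 0.0902).

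Ccnd1 was not called (-0.18, SE 0.07, adjusted p = 0.218), with differences of log2 levels of -0.005 in mouse 1 and -0.17, -0.32 and -0.21 in mice 2 to 4. Nor was Cdkn2c, which was higher in the liver in 4 of 4 mice without overlap (0.39, SE 0.17, adjusted p = 0.232). Ccnd2, Ccnd3, Cdk4, Cdk6, Cdkn1b and Rb1 overlapped between sites, with log2 fold changes from -0.19 (Ccnd2) to 0.25 (Cdkn1b). Of the 16 other G1/S genes none was called by edgeR, DESeq2 or the exact test or had an unadjusted p under 0.05, with E2f2 at -0.44 (SE 0.30) and Ccne2 at 0.26 (SE 0.18). Of the 18 S phase and division genes none was called by any of the 3 and 1 had an unadjusted p under 0.05, with Rrm2 at 0.30 (SE 0.16) and Top2a at 0.28 (SE 0.18). None of 3 other Cdk inhibitors was called by edgeR, DESeq2 or the exact test (1 at an unadjusted p under 0.05), with Cdkn1c at -0.33 (SE 0.43) and Cdkn2d at 0.29 (SE 0.12). None of the 5 turnover genes was called by the 3 tests or had an unadjusted p under 0.05, with Fbxw7 at 0.22 (SE 0.15) and Fbxo4 at -0.21 (SE 0.11).

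Among 15 genes of the Arf-p53 arm and regulators of Cdkn2a, Ets1, of the same family as Ets2, was higher in the liver (0.35, SE 0.07, adjusted p = 0.0331). Zbtb7a, a repressor of p19Arf transcription, was lower there (-0.30, SE 0.07, adjusted p = 0.0463), but not without the peritoneal library of mouse 1 (-0.28, adjusted p = 0.0556). Of the 9 secreted genes, 2 were called higher in the liver and none lower, where 1.33% of all genes were called higher and 1.87% lower. Their median was -0.45, and Igfbp3 was at 0.48 (SE 0.10, adjusted p = 0.033). Without the peritoneal library of mouse 1, 3 were called higher, where 6.7% of all genes were called. The median was then 0.52, so the sign of the median rested on that library. Of 10 neighbours of Cdk4, B4galnt1, a ganglioside synthase, was lower (-0.40, SE 0.09, adjusted p = 0.0412).

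Stromal cells show which compartment carried the transcripts. Ccnd1, Cdkn2a, Cdkn2b, Cdk4 and Cdk6 were higher in tumour cells than in stroma at both sites in 4 of 4 mice, while Ccnd3, Cdkn2c, Cdkn1b and Rb1 were lower in 4 of 4. Cdkn2a was 6.72-fold higher in the liver and 15.0-fold higher in the peritoneum, and Ccnd1 6.23 and 11.4-fold. In the liver 5 of the 10 genes were called higher and 4 lower, where 38.4% of all genes were called higher and 39.4% lower. In the peritoneum 6 were called higher and 4 lower, where the shares were 39.5% and 37.1%.

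Cdkn2a stood at 10.5, 10.4, 12.4 and 13.7 CPM in liver stroma and at 8.18, 6.66, 7.32 and 8.77 CPM in peritoneal stroma. Cdkn2b stood at 7.75, 8.50, 8.78 and 7.78 CPM and at 6.42, 10.4, 7.95 and 7.42 CPM. All 8 stromal libraries were below every cultured and tumour library for both genes. The log2 fold changes of tumour cells over stroma were 2.75 (SE 0.11, adjusted p = 4.48e-10) and 3.91 (SE 0.14, adjusted p = 5.27e-07) for Cdkn2a and 2.31 (SE 0.10, adjusted p = 1.48e-09) and 2.87 (SE 0.17, adjusted p = 2.26e-06) for Cdkn2b.

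Ccnd1 stood at 207, 231, 189.6 and 230.1 CPM in liver stroma and at 144, 121, 147 and 154 CPM in peritoneal stroma (2.64, SE 0.10, and 3.51, SE 0.10). Ccnd2 was near the tumour level, at 247, 266, 237 and 218 CPM and at 158, 223, 170.1 and 187 CPM. It was not called in the liver (-0.14, SE 0.10, adjusted p = 0.209) and was called higher in tumour cells of the peritoneum (0.53, SE 0.15, adjusted p = 0.01), but not without the tumour library of mouse 1 (0.32, adjusted p = 0.0513). Ccnd3, the D cyclin prominent in lymphoid and myeloid cells, stood at 113, 129, 169 and 149 CPM in liver stroma and at 113, 116, 112 and 95.8 CPM in peritoneal stroma, and was 3.57 and 2.62-fold lower in tumour cells. Cdk4 ranged from 115 to 162 CPM and Cdk6 from 71.4 to 108 CPM in stroma. The log2 fold changes in tumour cells were 1.20 and 1.31 for Cdk4 and 0.77 and 1.32 for Cdk6.

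Cdkn2c was at 9.65, 11.3, 11.7 and 11.2 CPM in liver stroma and at 21.2, 18.1, 18.3 and 15.2 CPM in peritoneal stroma, so that tumour cells were 2.07 and 4.24-fold lower. Cdkn1b was at 139, 148, 127 and 141 CPM and at 103, 93.2, 84.3 and 93.7 CPM (-0.97, SE 0.13, and -0.56, SE 0.11). Rb1 was at 84.8, 84.8, 78.1 and 86.7 CPM and at 79.8, 59.6, 50.5 and 62.4 CPM (-0.93, SE 0.15, and -0.60, SE 0.19). Of the 18 S phase and division genes, 11 were called higher and 2 lower in liver tumour cells and 12 higher and 2 lower in peritoneal tumour cells, and all 3 other Cdk inhibitors were called lower at both sites.

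Epithelial markers in stroma stood beside these values. The level in liver stroma, as a percentage of the level in liver tumour cells, was 14.3 for Krt8, 15.5 for Krt18, 14.02 for Krt19, 15.2 for Sox9, 14.1 for Hnf4a and 40.1 for Cdh1. It was 16.1 for Ccnd1, 15.0 for Cdkn2a and 20.3 for Cdkn2b. In the peritoneum these were 7.97 for Krt8, 8.23 for Krt18, 7.24 for Krt19, 10.7 for Sox9, 5.31 for Hnf4a and 25.6 for Cdh1, beside 9.41 for Ccnd1, 7.12 for Cdkn2a and 14.6 for Cdkn2b. For Cdk4 the percentages were 43.9 and 43.3, and for Cdk6 59.1 and 42.8. Whether tumour RNA in the stromal sort gave the Ccnd1, Cdkn2a and Cdkn2b counts there was not tested.

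**Figure D5:**
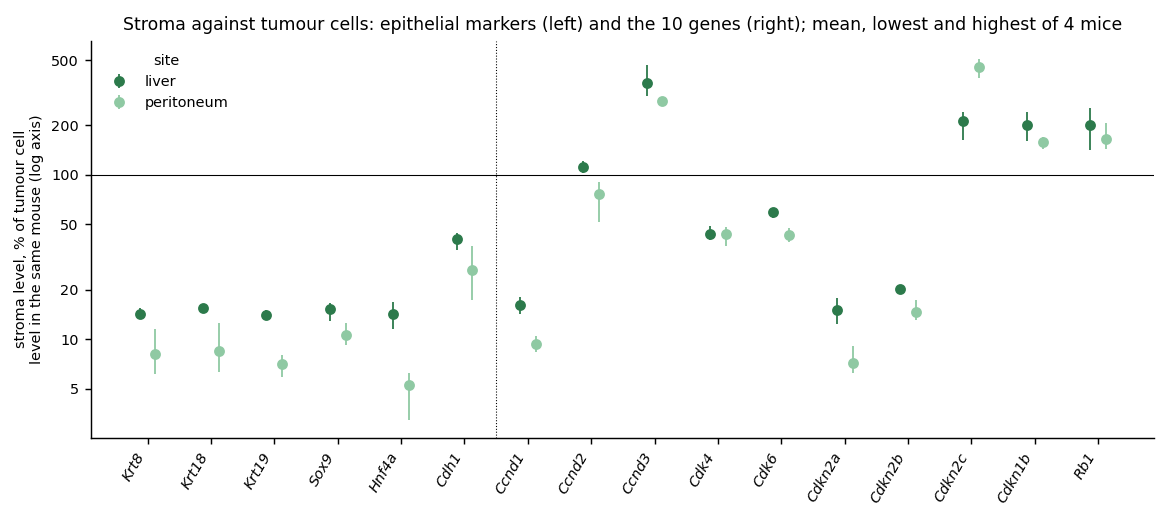
Stromal level as a percentage of the tumour cell level of the same mouse and site (log axis) for 6 epithelial markers, left of the dotted line, and the 10 genes. Points are means and bars run from the lowest to the highest of 4 mice. Ccnd1 and Cdkn2a lie near the keratins and Cdkn2b lies above them, all below 25%. Ccnd3, Cdkn2c, Cdkn1b and Rb1 lie above 100%.

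More of the 10 genes were called between liver and peritoneal stroma than between the tumour cells of the sites, and so were more of all genes. Between the tumour cells 1.33% of all genes were called higher in the liver and 1.87% lower. In liver stroma 5 of the 10 were called higher (Ccnd1, Cdk6, Cdkn2a, Cdkn1b and Rb1) and Cdkn2c was called lower, where 14.9% of all genes were called higher and 18.5% lower. The sorted stroma differed in its cells: fibroblast markers summed to 4140 to 8415 CPM in the liver and 53983 to 81952 CPM in the peritoneum, hepatocyte markers to 24.8 to 217 and 0.381 to 1.76 CPM, and epithelial markers to 1330 to 1684 and 720.0 to 1196 CPM. Their part in these differences was not tested. The log2 fold changes were 0.56 (SE 0.10, adjusted p = 0.00233) for Ccnd1, 0.29 (SE 0.09, adjusted p = 0.0308) for Cdk6, 0.56 (SE 0.14, adjusted p = 0.012) for Cdkn2a, 0.53 (SE 0.09, adjusted p = 0.00126) for Cdkn1b and 0.37 (SE 0.12, adjusted p = 0.0466) for Rb1. For Cdkn2c it was -0.77 (SE 0.12, adjusted p = 0.00113). With the mouse as a block Ccnd2 (0.36, adjusted p = 0.0216) and Cdk4 (-0.20, adjusted p = 0.0403) were called as well. Rb1 was lost without any 1 of 7 libraries and Cdk6 without any 1 of 4 (adjusted p up to 0.108 and 0.0927).

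The test of the difference itself, liver minus peritoneum in tumour cells minus the same in stroma, called 4 of the 10 lower and 1 higher, where 7.50% of all genes were called lower and 6.79% higher. The values on the log2 scale were -1.11 (SE 0.16, adjusted p = 0.000413) for Cdkn2a, -0.82 (SE 0.13, adjusted p = 0.000657) for Ccnd1, -0.62 (SE 0.18, adjusted p = 0.0328) for Ccnd2, -0.50 (SE 0.15, adjusted p = 0.0316) for Cdk6 and 1.09 (SE 0.18, adjusted p = 0.00093) for Cdkn2c, beside a median of -0.12 over all genes. Cdkn2b was at -0.51 (adjusted p = 0.0809, and 0.0162 with the mouse as a block). Cdkn2a was lower in the liver in tumour cells and higher in the liver in stroma in 4 of 4 mice. Ccnd1 was higher in liver stroma in 4 of 4 mice, by 0.37 to 0.93 on the log2 scale, and was not called between the tumour cells of the sites. The keratins Krt8 and Krt18 and the transcription factor Hnf4a had values of -0.88, -0.95 and -1.45 in the same test. The part of epithelial signal in stroma in these differences was not tested. Without 1 library, Ccnd2 or Cdk6 was lost in most fits (adjusted p up to 0.148 and 0.113), while Cdkn2a, Ccnd1 and Cdkn2c stayed called.

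The genes most like 3 of the 10 were found over all 25 libraries, among 13192 genes with a mean of at least 1 CPM, by Pearson's r of log2(CPM + 1). The libraries share culture, tumour and stromal groups, so r mainly follows those groups. Nearest to Ccnd1 were Tspan8 (r = 0.993), Hnf4a (0.991), Esrp2 (0.99) and Nol4l (0.99). Among the nearest to Cdkn2a were Myo5c (0.99), Inava (0.988) and Arhgef5 (0.982). Nearest to Cdkn2b were C77080 (0.977), Rin1 (0.977), Myof (0.976) and Elovl7 (0.974). Myo5c averaged 65.5 CPM in BMEL WT, 102 in RasLOW, 108 in RasHIGH, 81.0 and 121 in liver and peritoneal tumour cells and 11.3 and 8.46 in the stroma. It was picked for its likeness to Cdkn2a over these same libraries, so a shared order of groups is no separate result.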

How the data were processed

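Messenger RNA of 25 libraries was sequenced from polyadenylated RNA after library preparation with a NuGEN kit. The authors aligned reads to mm9 with TopHat2 and deposited counts of reads per gene, not normalized. The submitters' processing notes also name FastQC, Bowtie 0.12.2, mm8 and mm10. The counting program, strand setting and annotation are not given in the sources used here. All 25 columns matched a sample by library identifier, and 0 further columns of samples were present.

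From the deposited counts, each comparison was fitted on its own groups with edgeR 4.0.16 (R 4.3.3, limma 3.58.1), using filterByExpr (minimum count 10), TMM, the quasi-likelihood F-test and Benjamini-Hochberg adjustment over all genes tested. A gene was called at an adjusted p under 0.05. The site difference is the interaction of site and compartment in a fit of the 16 tumour and stromal libraries. CPM were scaled by TMM factors over all 25 libraries (0.872 to 1.13), and errors are SDs or, for fold changes, SEs. A level of 3 counts covers counting error only. No 2 libraries were identical.

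The 10 genes and the pathway and marker lists were chosen with earlier results of these data known. Named were all 10 genes in every comparison, from each pathway list up to 3 genes with the smallest adjusted p among those called (or up to 2 with the largest change where none was called) in the cultured comparisons and between tumour sites, and for Ccnd1, Cdkn2a and Cdkn2b the 4 genes most like each. Genes used to check cell types or libraries (Mki67, Epcam, keratins and others), Hras and the genes that overlap a listed gene were named beside these. Cks1b was named after its values had been seen. Some genes that this rule would name are not reported here.

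Alternatives were DESeq2 1.42.0, RLE factors, the edgeR exact test, no filter, a 1 CPM filter, the thresholds of the study (log2 fold change 1.5 with p under 0.01 in cultured cells, 1 with p under 0.05 in tumours), all 25 libraries in 1 fit, a block for the mouse or the replicate number, the libraries of 1 lane and leaving out each library. Leaving out RasHIGH replicate 1 and RasLOW replicate 2 together was added after the data had been seen. Liver and peritoneal libraries of 1 number come from the same mouse by the labels, and their deviations from group means correlated at -0.185 to 0.355. In simulated data with 200 genes changed by a log2 fold change of 2, 185 were recovered in RasLOW against BMEL WT (12180 genes, 15 false calls) and 197 in liver against peritoneal tumour cells (12938 genes, 8 false calls). Log2 fold changes of the 10 genes ran from -0.66 to 0.68 and from -0.47 to 0.39 in these comparisons. Recovery of changes of that size was not simulated.

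Exon positions came from GENCODE on mm9 and promoters from RefSeq on GRCm38.p6. Shared sequence was counted as stretches of 50 bases found in another gene: 20.8% of those of Ccnd1, 13.8% of Ccnd3, 22.3% of Cdk4, 1.25% of Rb1 and 0.678% of Cdk6, and 0 in the other genes.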

Additional observations from a re-analysis of the deposited data

Results flagged for a closer look

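Ccnd1 in peritoneal tumour cells had 1 library apart from the other three: mouse 3 stood at 1639.5 CPM, against 1453 to 1465 CPM in the others, a gap of 0.938 of the range of the group, above the critical value of Dixon's test. It was the only one among 40 groups examined, where chance alone flags about 1 in 20.

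The difference between liver and peritoneum differed between tumour cells and stroma for 5 of the 10 genes, by the interaction test. Of all genes, 7.50% were called lower and 6.79% higher in it. Ccnd2 was lost in 9 and Cdk6 in 8 of the 16 fits with a library left out. The part of epithelial signal in stroma was not tested. The values, liver minus peritoneum in tumour cells minus the same in stroma on the log2 scale, were -1.11 for Cdkn2a, -0.82 for Ccnd1, -0.62 for Ccnd2, -0.50 for Cdk6 and 1.09 for Cdkn2c.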

How the results depend on the processing

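Over the log2 fold changes of the 10 genes in all comparisons and alternatives, 1411 of 1590 values kept their direction and side of the threshold, 126 lost their call, 18 gained one and 35 changed sign. Numbers of the 10 genes called moved as follows. RasLOW against BMEL WT (0 called) had 1 by DESeq2 and 1 with all 25 libraries in 1 fit, and 0 to 1 with a library left out. RasHIGH against BMEL WT (4 called) had 0 at the thresholds of the study, 0 on the shared lane and 2 to 4 with a library left out. RasHIGH against RasLOW had 1 (Ccnd3) with all 25 libraries. Liver against peritoneal tumour cells (2 called) had 0 at the thresholds of the study, with all 25 libraries and with the mouse as replicate block, and 0 to 2 with a library left out. Liver against peritoneal stroma had 0 at the thresholds of the study. Liver and peritoneal tumour cells against RasHIGH (8 and 4 called) had 1 each at those thresholds, and 5 to 9 and 2 to 4 with a library left out. The site difference (5 called) had 3 without a filter, 2 with all 25 libraries and 3 to 5 with a library left out. The cause was not tested, save that the thresholds of the study demand a larger change and the shared lane holds fewer libraries.

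Changes of sign concerned genes without a call. In RasLOW against BMEL WT, Cdkn1b (-0.0049) went to 0.00138 by DESeq2, 0.00139 with RLE factors, 0.0117 without a filter, 0.0285 with all 25 libraries, 0.0244 with the replicate block and 0.133 on the shared lane, and Cdkn2c (0.20) to -0.0583 with the replicate block. Ccnd3 between tumour sites went to 0.00148 and Cdk4 in the site difference to 0.015 without a filter. Cdkn2b between stroma sites went to 0.0285 with all 25 libraries and 0.00531 with the mouse as block. With a library left out, the ranges were, in RasLOW against BMEL WT, -0.00197 to 0.38 for Cdkn2b, -0.269 to 0.636 for Cdkn2c, -0.031 to 0.202 for Cdk6, -0.672 to 0.126 for Ccnd2 and -0.138 to 0.217 for Cdkn1b. They were -0.781 to 0.0845 for Cdkn2c in RasHIGH against BMEL WT, -0.0567 to 0.745 for Cdkn2b and -0.018 to 0.282 for Cdk4 in RasHIGH against RasLOW, and -0.0776 to 0.0225 for Ccnd3 between tumour sites. They were -0.132 to 0.125 for Cdkn2b between stroma sites, -0.134 to 0.0425 for Cdk4 in liver tumour cells and -0.709 to 0.0958 for Cdkn2b in peritoneal tumour cells against RasHIGH, and -0.106 to 0.0598 for Cdk4 in the site difference.

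Calls over all genes moved by more than 1.5 times. In RasLOW against BMEL WT, 734 became 1622 by DESeq2, 1352 by the exact test, 2440 with all 25 libraries, 295 with the replicate block, 0 on the shared lane, 2340 without RasLOW replicate 2 and 148 to 368 without another library. In RasHIGH against BMEL WT, 2789 became 4347 with all 25 libraries, 316 on the shared lane and 1517 to 1793 without RasHIGH replicate 2 or any 1 BMEL WT library. In RasHIGH against RasLOW, 9 became 419 by DESeq2, 331 by the exact test, 77 without a filter, 917 with all 25 libraries, 0 with the replicate block, 16 without RasLOW replicate 1, 0 without any 1 other library and 50 without both libraries that stood apart. Between tumour sites, 419 became 1146 by DESeq2, 945 by the exact test, 102 with the mouse as block, 41 and 80 without the liver library of mouse 2 or 4, 208 without that of mouse 3, and 884, 231 and 277 without the peritoneal library of mouse 1, 3 or 4. The site difference went from 2191 to 1180 with all 25 libraries, and peritoneal tumour cells against RasHIGH from 4846 to 3154 without RasHIGH replicate 2. At the thresholds of the study the counts were 1190 in RasHIGH against BMEL WT, 253 in RasHIGH against RasLOW, 2107 between stroma sites, 6437 and 6377 between tumour cells and stroma of liver and peritoneum, and 3050 and 2571 in their tumour cells against RasHIGH. Cultured libraries share only a replicate number (correlations of deviations from -0.689 to 0.355), and blocking on it left 0, 4 and 0 of the 10 genes called.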

Other observations

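Values outside the comparisons concern which members of each family were counted in the stromal libraries. Of Cdkn2a, Cdkn2b and Cdkn2c together, per length, Cdkn2c made up 35.3% ± 4.13 (SD, n = 4) in peritoneal stroma and 20.4% ± 1.07 (n = 4) in liver stroma. Its share was 4.09% ± 0.648 (n = 3) in BMEL WT and 1.14% ± 0.277 (n = 4) in peritoneal tumour cells. The Cdkn2a count in these shares joins p16Ink4a and p19Arf, so they are not shares of Ink4 transcripts. Of Cdk4 and Cdk6 together, Cdk6 made up 34.6% ± 1.84 (n = 3) in BMEL WT, 44.3% ± 7.28 (n = 3) in RasHIGH, and 41.6% ± 2.81 and 33.6% ± 4.00 (n = 4 each) in liver and peritoneal stroma. The ratio of Cdkn2a to Cdkn2b counts averaged 1.44 in liver stroma and 1.004 in peritoneal stroma, below the averages of 1.95 and 1.98 in the tumour cells of these sites. These are descriptions of levels and were not tested. The part of tumour RNA in the stromal counts was not tested either.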
